A study of Rattus norvegicus with 150 samples.

Results

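The 7 genes described here are immediate early genes: Fos (ENSRNOG00000008015), Jun (ENSRNOG00000026293), Junb (ENSRNOG00000042838), Egr1 (ENSRNOG00000019422), Atf3 (ENSRNOG00000003745), Myc (ENSRNOG00000004500) and Nr4a1 (ENSRNOG00000007607). They were taken by identifier, with no use of their values, from the 32545 genes of a count table of rat gastrocnemius, the large muscle of the calf. All 7 passed the filter on low counts. The table held 150 RNA-seq libraries in 19 groups, of 8 libraries each except for 7 in Ta at 1 month and 7 in Co at 6 months.

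Immediate early genes encode transcription factors whose genes are switched on within minutes of a stimulus, without new protein synthesis, and whose messenger RNAs are short-lived. Growth factors, stretch, contraction, injury and stress induce them, and in muscle an exercise bout raises several of them for a short time.

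Each rat was a male Sprague-Dawley bought at about 30 days of age, kept for at least 2 weeks before surgery, and given 2 small cylinders of a metal in the gastrocnemius of each hind limb, 4 in all. Tantalum (Ta), an inert metal, was the surgical sham, so every control library also comes from muscle with an embedded pellet. Muscle with Ta, cobalt (Co), depleted uranium (DU) or the metal labelled P was collected 1, 3, 6 or 12 months after surgery, and muscle with nickel (Ni) at 1, 3 or 6 months. P is kept as labelled; the design text names lead (Pb) and no metal with the symbol P. The age of the rats, the time since surgery and the day of collection rise together and cannot be told apart. The rats lived under a fixed light cycle, but the labels used here give no hour of death, no interval to freezing, no order of collection and no sequencing lane for a library, so the part of handling or time of day in any value below was not tested. The labels tie no library to a rat or limb, and each p-value refers to the spread between libraries, which may be technical. In whole muscle, fewer cells of a type and less RNA per cell cannot be told apart.

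Library totals ran from 12674115 to 21921859 counts with a median of 15778710. In 10 libraries the median correlation of log2 values with the other libraries of the group was under 0.9: replicates 1 and 3 of Co at 1 month, replicates 2, 5, 6, 7 and 8 of Co at 3 months, replicate 1 of Co at 6 months, replicate 2 of DU at 3 months (0.609) and replicate 6 of DU at 12 months. Results were recomputed without these libraries. Markers of muscle fibres, of other cell types and further immediate early or clock genes could not be given, since no table used here pairs their symbols with the identifiers of the count table.

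The promoters of Junb and Nr4a1 are shown because these 2 members differ in the results that follow: the test of metal and time together was called for Junb with DU and for Nr4a1 with no metal. Both are 300-base windows from RefSeq on GRCr8, a later build than the Rnor_6.0 build of the counts, from 250 bases before the start of transcription to 50 after it, on the plus strand. In Junb, at chr19:40080876-40081175, the capitals mark a CCAAT and a TATAAA. In Nr4a1, at chr7:134259888-134260187, they mark 3 GC boxes, which are GGGCGG read on the opposite strand. This window lies inside the RefSeq span of Nr4a1, chr7:134247153-134268044, so its start is not the outermost start of the gene.
Junb: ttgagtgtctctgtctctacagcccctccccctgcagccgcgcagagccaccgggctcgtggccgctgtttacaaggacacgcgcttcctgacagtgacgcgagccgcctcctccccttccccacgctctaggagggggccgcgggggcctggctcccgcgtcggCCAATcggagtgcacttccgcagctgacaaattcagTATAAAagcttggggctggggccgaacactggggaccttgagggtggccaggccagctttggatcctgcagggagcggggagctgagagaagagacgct
Nr4a1: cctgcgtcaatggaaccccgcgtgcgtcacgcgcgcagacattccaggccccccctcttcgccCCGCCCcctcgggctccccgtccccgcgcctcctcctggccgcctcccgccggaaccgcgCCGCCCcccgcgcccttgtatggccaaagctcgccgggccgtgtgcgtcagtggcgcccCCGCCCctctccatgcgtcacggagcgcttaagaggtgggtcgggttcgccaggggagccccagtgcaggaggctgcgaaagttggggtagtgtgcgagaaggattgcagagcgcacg

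Of the 7 members, 3 had a promoter in the RefSeq table: Junb, Nr4a1 and Egr1. Each motif was searched on both strands, and its share was counted over all 33469 promoters of the table. TATAAA began 49 bases before the start in Junb and occurred in 14.2% of all promoters. CCAAT was present in Junb and Egr1 and in 37.5% of all promoters. GGGCGG was present in Nr4a1 alone of the 3 and in 33.1% of all promoters. The CArG box, the site bound by serum response factor, was found at 2 places in Egr1, and 1.64% of all promoters held it. The cAMP response element TGACGTCA, held by 1.83% of promoters, and the AP-1 site TGANTCA, held by 7.33%, were in none of these 3 windows, which says only that these letters are not there.

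Levels are given as CPM, the count relative to the size of the library, after scaling by the trimmed mean of M-values (TMM), and are compared for a gene between libraries, never between genes, because no gene lengths were used. Fos, the partner that forms the AP-1 dimer with the Jun proteins, ran over all 150 libraries from 3.87 to 174 CPM with a median of 16.8. Group medians of Fos ran from 8.80 in DU at 1 month to 35.9 in P at 12 months. Jun, the founding Jun protein of AP-1, ran from 57.1 to 433 CPM with a median of 154, and its group medians from 116 in Ni at 6 months to 214 in Ta at 12 months. Its range was narrower than that of Fos.

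Junb, a Jun protein that can restrain Jun at some targets, ran from 6.68 to 410 CPM with a median of 18.9. Its group medians ran from 11.6 in DU at 1 month to 44.7 in Co at 3 months. Atf3, a stress-induced factor of the ATF/CREB family, ran from 2.68 to 160 CPM with a median of 23.4, and its group medians from 12.0 in DU at 1 month to 45.2 in P at 12 months. The lowest group median of Fos, Junb and Atf3 alike was that of DU at 1 month.

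Egr1, a zinc finger factor induced through serum response factor, ran from 5.52 to 98.2 CPM with a median of 18.4. Its group medians ran from 13.8 in DU at 1 month to 38.5 in Ta at 3 months. Nr4a1, an orphan nuclear receptor that responds to contraction and adrenergic signals in muscle, ran from 1.32 to 890 CPM with a median of 140. Its group medians ran from 83.8 in Co at 3 months to 242 in Ta at 12 months. Myc, which drives growth and ribosome production, ran from 0.855 to 93.1 CPM with a median of 3.22, and its group medians from 2.14 in DU at 6 months to 6.62 in Co at 1 month. Myc rested on few reads, with 8 to 2259 counts a library and a median of 50.5.

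When the 19 groups were ordered by median, the ranges of neighbouring groups overlapped in 18 of 18 steps for each of the 7 members. Neighbours in such an order have close medians, so overlap is likely for any gene, and its share over all genes was not computed. By an edgeR quasi-likelihood F test of equality of the 19 group means, 4 of 7 members differed between groups, beside 75.0% of all 14762 genes tested. These were Junb (adjusted p = 2.62e-12), Myc (adjusted p = 2.52e-11), Fos (adjusted p = 0.000295) and Nr4a1 (adjusted p = 0.0169). The adjusted p of the other members was 0.0902 for Jun, 0.159 for Atf3 and 0.167 for Egr1. Without replicate 5 of P at 12 months, Nr4a1 was no longer called (adjusted p = 0.148), and Jun was called without replicate 5 of Co at 3 months or replicate 5 of Ta at 6 months. A share of 4 in 7 is no higher than the share among all genes.

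**Figure D1:**
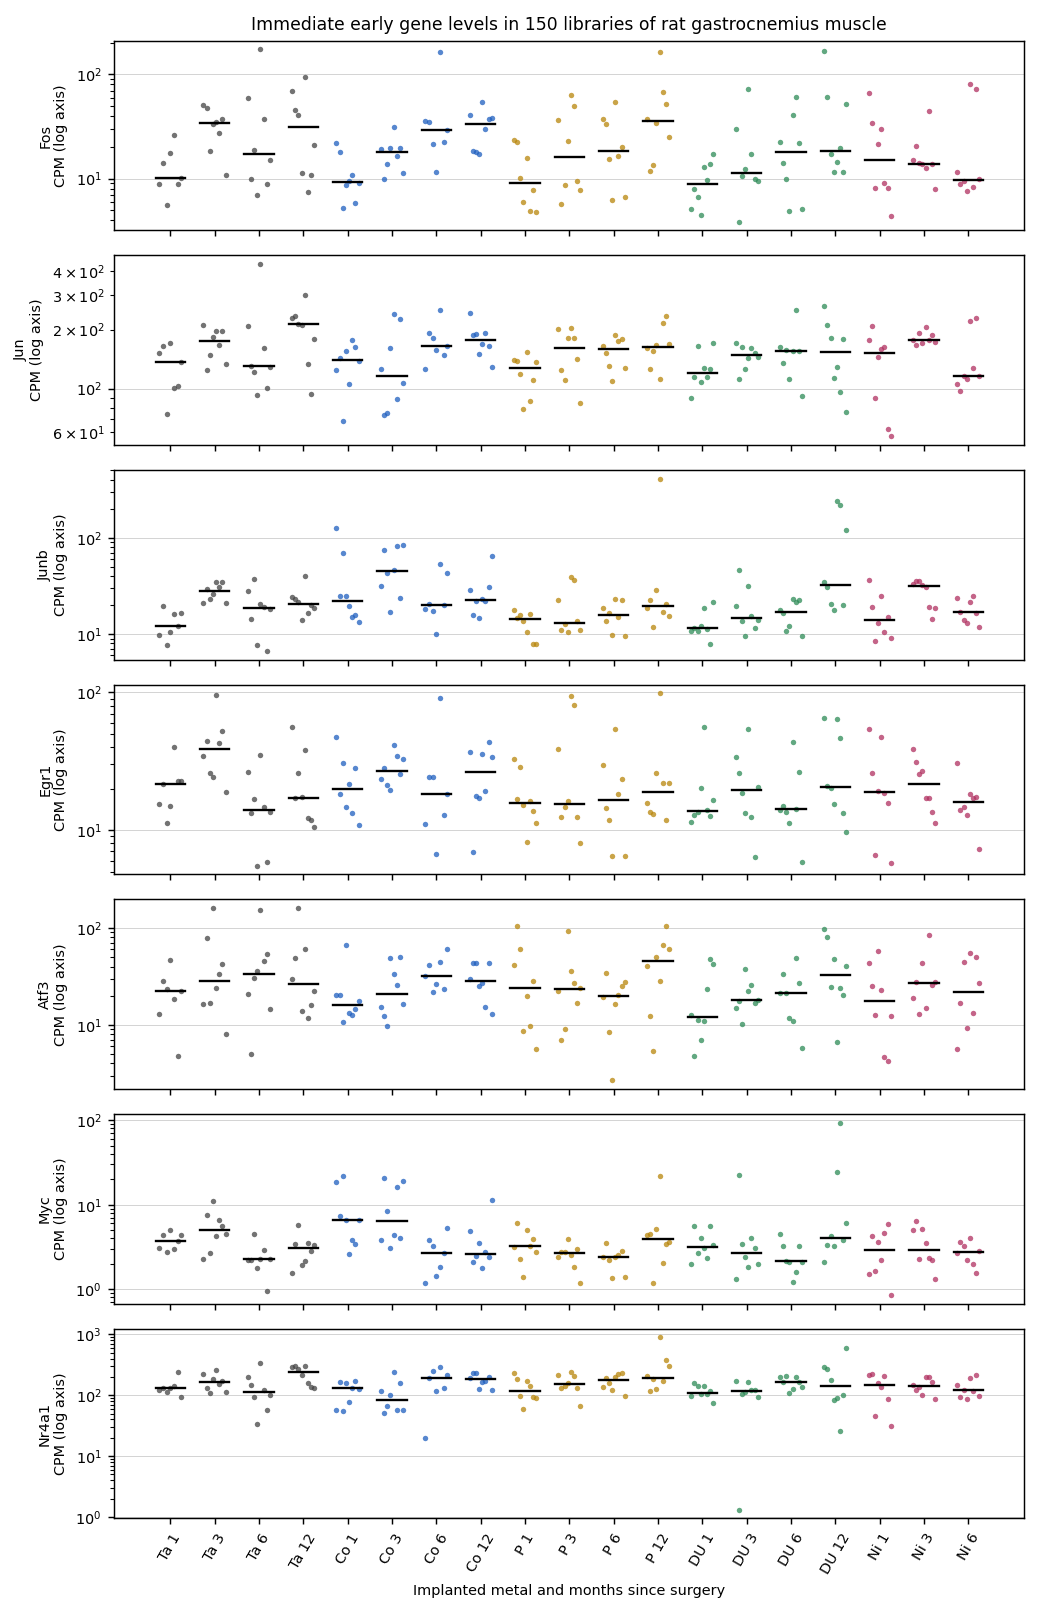
Level of each gene in each of 150 libraries, in TMM-scaled CPM on a log axis, by implanted metal and months since surgery. Each point is a library, in order of replicate number within the group, and each bar a group median. The ranges of groups with neighbouring medians overlap for every gene shown. Libraries far from their group are visible, such as Nr4a1 at 1.32 CPM in DU at 3 months.

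Time since surgery was compared first, as the mean over the 4 metals with all times (Ta, Co, P and DU), which gives 31 or 32 libraries a time. At 12 months against 1 month, 5 of 7 members were higher, namely Fos, Junb, Nr4a1, Atf3 and Jun, beside 34.2% of all genes called in either direction and 15.7% called higher. The median log2 fold change of the 7 members was 0.75, and that of all genes was -0.01. Within Ta alone 0 of 7 passed (6.04% of genes called), with positive log2 fold changes for these 5 members, from 0.63 for Jun to 1.53 for Fos.

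Fos showed the largest of these changes. At 1 month its lowest, median and highest library were at 4.50, 9.43 and 26.4 CPM, and at 12 months at 7.48, 32.2 and 167 CPM. The ranges overlap, but the 12-month median lies above the highest 1-month library of these 4 metals; Ni at 1 month, which is not in this mean, reached 66.6 CPM. Its log2 fold change was 1.83 ± 0.29 (SE; edgeR, adjusted p = 2.47e-07). The intermediate times lay between, with medians of 18.9 CPM at 3 months and 21.7 CPM at 6 months. Fos was already higher than at 1 month at 3 months (1.04 ± 0.29, adjusted p = 0.00922) and at 6 months (1.46 ± 0.29, adjusted p = 3.48e-05). The first of these calls was lost when averaged without DU (1.03, adjusted p = 0.0765). Within each metal, the log2 fold change from 1 to 12 months was 1.495 in Co (adjusted p = 0.0427, 26.1% of genes called), 2.10 in P (adjusted p = 0.0319, 2.01% called) and 2.20 in DU (adjusted p = 0.00772, 7.99% called). In Ta it was 1.53 with an adjusted p of 0.108, which misses the threshold; a difference between the metals in this rise was not called (interaction adjusted p from 0.523 to 0.859, the test of Ni covering 1 to 6 months).

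Fos was also higher at 12 than at 3 months (0.79 ± 0.28; edgeR, adjusted p = 0.0185), a call that was lost without replicate 5 of P at 12 months (0.65, adjusted p = 0.053), and when averaged without Co, P or DU (adjusted p = 0.0729, 0.0687 and 0.0825).

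Jun moved less. Its libraries lay at 68.5, 127 and 177 CPM (lowest, median, highest) at 1 month and at 75.9, 174 and 302 CPM at 12 months. The ranges overlap widely, and the 12-month median is close to the top of the 1-month libraries. Its log2 fold change was 0.46 ± 0.11 at 12 months (edgeR, adjusted p = 0.000811) and 0.34 ± 0.11 at 6 months (adjusted p = 0.0119). Without Ta or without Co in the mean, the 6-month call was lost (adjusted p = 0.0523 and 0.0584).

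Junb lay at 7.70, 14.9 and 126 CPM at 1 month and at 11.8, 22.1 and 410 CPM at 12 months. Most libraries of the 2 times share a range, and the highest values come from few libraries: replicate 1 of Co at 1 month, and replicate 5 of P at 12 months. The fitted log2 fold change was 1.35 ± 0.23 (edgeR, adjusted p = 7.1e-07), and without that library of P it was 0.89 (adjusted p = 9.11e-05). Averaged without DU it was 0.88 (adjusted p = 0.00485), and with limma voom and sample weights 0.82. Junb was also higher at 3 than at 1 month (0.67 ± 0.22, adjusted p = 0.0367), at 12 than at 3 months (0.68 ± 0.22, adjusted p = 0.00881) and at 12 than at 6 months (1.21 ± 0.22, adjusted p = 0.000141), and lower at 6 than at 3 months (-0.53 ± 0.22, adjusted p = 0.0447). The step from 3 to 12 months was 0.22 without replicate 5 of P at 12 months (adjusted p = 0.361). The step from 6 to 12 months was 0.75 without it (adjusted p = 0.0117), and with limma voom and sample weights the steps from 3 and from 6 to 12 months were 0.015 and 0.34 (adjusted p = 0.952 and 0.22). The step from 6 to 12 months also missed the threshold when averaged without DU (0.81, adjusted p = 0.0638). The call of 3 against 1 month was lost when averaged without any of the 4 metals (adjusted p from 0.0515 to 0.16), and without replicate 2, 6 or 8 of Co at 3 months or replicate 2 of DU at 3 months. That of 6 against 3 months was lost without any of these, without replicate 3 of Co at 1 month or without replicate 1 of Co at 6 months.

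Atf3 lay at 4.75, 18.7 and 104 CPM at 1 month and at 5.33, 30.0 and 160 CPM at 12 months. The ranges nearly coincide while the median is higher at the later time. The fitted log2 fold change was 0.75 ± 0.28 (edgeR, adjusted p = 0.0262), and it was the only one of the 6 contrasts between times in which Atf3 was called. Averaged without Ta or without DU it was 0.65 and 0.63, with adjusted p of 0.111 and 0.118.

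Nr4a1 lay at 54.5, 127 and 241 CPM at 1 month and at 25.4, 190 and 890 CPM at 12 months. Both the lowest and the highest of these values belong to the later time. Nr4a1 was higher at 12 than at 1 month (0.82 ± 0.19; edgeR, adjusted p = 0.00039) and at 12 than at 3 months (0.74 ± 0.19, adjusted p = 0.00109).

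Egr1 and Myc were not called between 1 and 12 months. Egr1 had medians of 16.2, 25.6, 14.6 and 19.7 CPM at 1, 3, 6 and 12 months, and its change from 1 to 12 months was 0.43 ± 0.23 (edgeR, adjusted p = 0.136). The difference of 3 from 1 month, 0.63 ± 0.23, had an adjusted p of 0.0567 and passed without replicate 1 of Co at 1 month, replicate 5 of P at 12 months or replicate 4 of Ta at 3 months. Its only call was the lower level at 6 than at 3 months (-0.65 ± 0.23, adjusted p = 0.0142), which was lost when the mean was taken without Ta (-0.41, adjusted p = 0.227) and without the libraries of low correlation (-0.51, adjusted p = 0.139). Myc lay at 1.17, 3.66 and 22.7 CPM at 3 months, at 0.954, 2.28 and 5.36 CPM at 6 months and at 1.20, 3.45 and 93.1 CPM at 12 months. The high values of 3 and 12 months are absent at 6 months. At 12 against 1 month the log2 fold change of Myc was 0.39 ± 0.24 (edgeR, adjusted p = 0.204), and averaged without Co it was 0.92 and called (adjusted p = 0.0102), while without DU it was -0.25 (adjusted p = 0.528).

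Myc fell from 1 to 6 months (-0.85 ± 0.24; edgeR, adjusted p = 0.00356) and from 3 to 6 months (-1.06 ± 0.24, adjusted p = 0.000214), and was higher at 12 than at 6 months (1.24 ± 0.24, adjusted p = 0.000395). Averaged without Co, the change from 1 to 6 months was -0.58 (adjusted p = 0.141). Averaged without DU, the change from 6 to 12 months was 0.72 (adjusted p = 0.147), and with limma voom and sample weights it was 0.31 (adjusted p = 0.318). The fitted changes differed between metals. Within Co, Myc was lower at 12 than at 1 month (-1.19, adjusted p = 0.0498), and within DU it was higher (2.30, adjusted p = 0.00038). In Co at 1 month, replicates 1 and 3, both of low correlation, were at 18.6 and 22.01 CPM (others 7.26 at most). In DU at 12 months, replicates 5 and 6 were at 24.1 and 93.1 CPM (others 2.11 to 6.02). The DU medians were 3.20 CPM at 1 month and 4.05 CPM at 12 months. These within-metal contrasts were not fitted without those libraries.

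Counted by contrast, the members called beside the share of all genes called in either direction were 2 of 7 beside 10.7% at 3 against 1 month, 3 of 7 beside 40.9% at 6 against 1 month and 3 of 7 beside 44.2% at 6 against 3 months. They were 3 of 7 beside 39.9% at 12 against 3 months, and 2 of 7 beside 4.5% at 12 against 6 months. These contrasts share libraries and are not independent of each other.

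**Figure D2:**
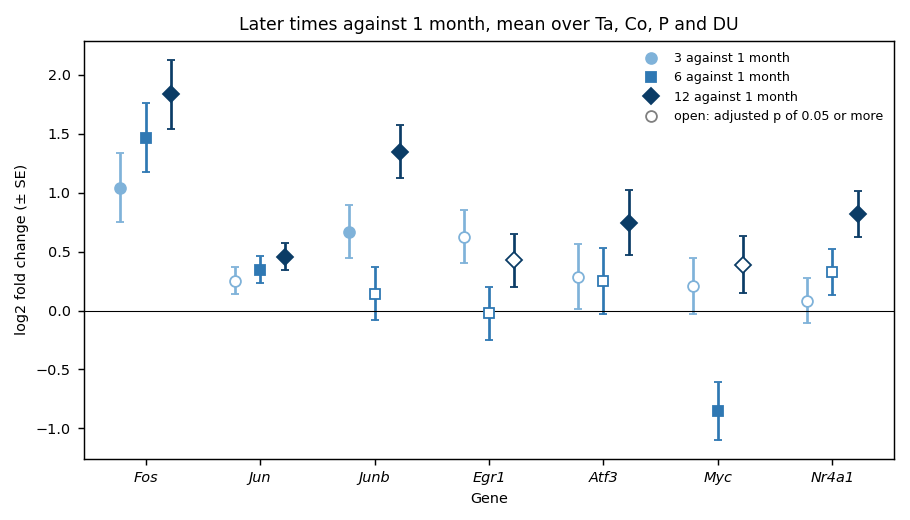
Log2 fold change of each gene at 3, 6 and 12 months against 1 month, as the mean over Ta, Co, P and DU, with its standard error; filled symbols have an edgeR adjusted p under 0.05. Fos rises at each later time to 1.83 at 12 months, and Myc falls at 6 months by 0.85.

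Each metal was then compared with Ta of the same time. In 15 comparisons of 7 members, which make 105 tests, edgeR called 0 members, and 13 tests had an unadjusted p under 0.05. The share of all genes called was 6.44% for Co at 3 months (6.17% higher and 0.274% lower), 2.38% for P at 12 months (1.93% higher and 0.452% lower) and 0.338% for P at 3 months (0.0989% higher and 0.239% lower). It was 0.00826% for DU at 12 months and 0.0083% for Co at 12 months, and 0 genes were called in the other 10 comparisons. The comparisons of a time share the same Ta libraries. DESeq2 called 5 of the 105 tests and limma voom with sample weights 6; other settings of edgeR called between 0 and 3, as given in the closing section.

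The test nearest the threshold was Myc with P at 3 months, where the libraries lay at 1.17, 2.65 and 3.93 CPM (lowest, median, highest) against 2.27, 5.02 and 11.1 CPM with Ta. The ranges overlap, with the higher values in Ta. The log2 fold change was -1.14 ± 0.30 (edgeR, adjusted p = 0.0629), and DESeq2 called it (adjusted p = 0.0114), beside 8.3% of all genes. The edgeR test passed without replicate 1 or 3 of Ta or without replicate 4 of P (adjusted p = 0.0148, 0.0384 and 0.0445).

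With Co at 3 months, Fos lay at 10.02, 17.9 and 31.5 CPM against 10.7, 34.3 and 50.8 CPM with Ta, while Junb lay at 16.8, 44.7 and 84.8 CPM against 21.1, 27.9 and 34.7 CPM. Fos had its higher libraries in Ta and Junb in Co, with overlap in both. The log2 fold change was -0.86 ± 0.29 for Fos (edgeR, adjusted p = 0.0776) and 0.88 ± 0.30 for Junb (adjusted p = 0.0812). Nr4a1 had its largest fitted difference here as well: 51.0, 83.8 and 238 CPM with Co against 107, 163 and 256 CPM with Ta, a log2 fold change of -0.64 ± 0.32 (adjusted p = 0.228). In this group 5 of the 8 libraries were of low correlation, and which libraries are kept moves the call: Fos passed without replicate 8 of Ta, Junb without replicate 4 or 7 of Co, and Fos and Nr4a1 without replicate 5 of Co. DESeq2 called Fos (adjusted p = 0.0351) and Junb (adjusted p = 0.0417), beside 11.9% of all genes.

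With Co at 1 month, Junb lay at 13.5, 22.2 and 126 CPM against 7.70, 12.1 and 19.8 CPM with Ta. Of the Co libraries the upper ones exceed every Ta library. The log2 fold change was 1.54 ± 0.48 (edgeR, adjusted p = 0.161), with 0 of 12512 genes called in that comparison. In the same libraries Myc lay at 2.64, 6.62 and 22.01 CPM against 2.73, 3.70 and 4.97 CPM, a log2 fold change of 1.23 ± 0.41 (adjusted p = 0.183). Both high values of each gene belong to the 2 libraries of low correlation: replicates 1 and 3 were at 126 and 69.4 CPM for Junb (others 25.1 at most) and at 18.6 and 22.01 CPM for Myc (others 7.26 at most). Without them the log2 fold change was 0.53 for Junb (adjusted p = 0.678) and 0.44 for Myc (adjusted p = 0.781). Junb was called there by DESeq2 (adjusted p = 0.0211, beside 4.17% of genes) and in the model of all 150 libraries (adjusted p = 0.0155, beside 11.5% of genes).

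Among the members, the largest fitted differences from Ta were those of Myc and Junb with DU at 12 months. Junb was at 34.6, 30.6, 20.7, 17.7, 240, 219, 20.1 and 120 CPM in DU replicates 1 to 8, and at 14.1, 20.6 and 40.4 CPM (lowest, median, highest) with Ta. Replicates 5, 6 and 8 stand far above the others, which lie within the range of Ta. The log2 fold change was 1.98 ± 0.55 (edgeR, adjusted p = 0.181). Myc was at 2.11, 3.38, 4.26, 3.23, 24.1, 93.1, 3.84 and 6.02 CPM in the same DU replicates, against 1.57, 3.09 and 5.83 CPM with Ta. Its high libraries are replicates 5 and 6, and its log2 fold change was 2.51 ± 0.75 (adjusted p = 0.199). In the model of all 150 libraries both were called, Junb with an adjusted p of 0.00173 and Myc with 0.000185, beside 5.06% of genes; DESeq2 called Junb (adjusted p = 0.016, beside 1.5%).

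With P at 12 months the fitted change of Junb rested on a library. Replicate 5 was at 410 CPM and the other libraries of the group between 11.8 and 28.5 CPM, against 14.1 to 40.4 CPM with Ta. The edgeR log2 fold change was 1.61 ± 0.75 (adjusted p = 0.278), and under DESeq2 it was -0.20 and under limma voom with sample weights -0.09, the opposite sign.

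At 3 months all 7 members had a fitted level below Ta with DU and with P, and 6 of 7 with Ni. All of these are measured against the same 8 Ta libraries, whose Egr1 group median is the highest of the 19. The pattern was not limited to 3 months: 7 of 7 were below Ta with DU at 1 month, and 6 of 7 with P at 1 month and with Ni at 6 months. The other way, 6 of 7 were above Ta with Co at 6 months and with P at 12 months. Some were very small, such as -0.01 for Junb with DU at 1 month and -0.008 for Egr1 with Ni at 6 months. The median log2 fold change of the members with DU at 1 month was -0.12, beside 0.005 for all genes. At 3 months it was -0.60 with DU, -0.38 with P and -0.56 with Ni, beside 0.04, -0.01 and -0.01. With P at 12 months it was 0.39, beside -0.006. The members share part of their spread, so their signs are not independent. The share of all genes below Ta was not computed. The largest fitted differences of Atf3 and Egr1 came from 3 months. With DU, Atf3 lay at 10.3, 18.0 and 37.5 CPM against 8.07, 28.5 and 160 CPM with Ta, a log2 fold change of -1.22 ± 0.51 (edgeR, adjusted p = 0.144). With Ni, Egr1 lay at 11.2, 21.5 and 38.9 CPM against 18.9, 38.5 and 96.0 CPM, a log2 fold change of -0.90 ± 0.32 (adjusted p = 0.998). None of these passed with edgeR. For DU at 3 months, leaving out its library of low correlation, replicate 2, gave a call of Junb (-0.77, adjusted p = 0.0481, beside 6.05% of genes). With sample weights, limma voom called Fos, Junb, Egr1 and Myc with DU, beside 38.4% of genes, and Junb and Myc with P, beside 32.7%. The largest fitted differences of Fos and Jun were smaller in proportion to their errors: -0.89 ± 0.67 with DU at 6 months (adjusted p = 0.538) and -0.34 ± 0.27 with DU at 12 months (adjusted p = 0.536).

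Whether the difference of a metal from Ta changed with time was tested directly, as the interaction of metal and time. For DU, Junb (edgeR, adjusted p = 0.00606) and Myc (adjusted p = 0.0241) were called, 2 of 7 members beside 14.0% of all genes. At 1, 3, 6 and 12 months the fitted log2 difference from Ta was -0.01, -0.42, -0.19 and 1.98 for Junb. It was -0.07, -0.06, 0.05 and 2.51 for Myc. The largest edgeR difference of both genes was that at 12 months. Medians of Junb at 1, 3, 6 and 12 months were 11.6, 14.7, 17.1 and 32.6 CPM with DU and 12.1, 27.9, 18.5 and 20.6 CPM with Ta. Those of Myc were 3.20, 2.71, 2.14 and 4.05 CPM with DU and 3.70, 5.02, 2.26 and 3.09 CPM with Ta. By these medians both genes were also lower with DU than with Ta at 3 months. The fitted Myc value at 3 months includes replicate 2 of DU, at 22.7 CPM (others 1.33 to 4.05). With limma voom and sample weights the 3-month difference was -1.02 for Junb and -1.14 for Myc. When each of the 63 libraries was left out in turn, Junb stayed under the threshold in every fit, and Myc in every fit but that without replicate 6 of DU at 12 months (adjusted p = 0.335). The high DU values of Junb at 12 months lie in replicates 5, 6 and 8, so leaving out 1 library cannot test whether its call depends on them. Replicates 5 and 6 had the highest TMM factors of that group, 1.48 and 1.56, and replicate 8 the lowest, 0.97. The part of library composition in these calls was not tested. With all libraries of low correlation left out, Myc was at an adjusted p of 0.0226. That setting drops replicate 6 of DU at 12 months and also replicate 2 of DU at 3 months, whose Myc was high. Which time carries that call was not tested. With a block for replicate number Junb stayed under the threshold and Myc did not, as given in the closing section.

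For P the corresponding adjusted p was 0.0525 for Myc and 0.095 for Junb, so 0 of 7 members were called beside 2.83% of genes. These 2 members were the ones at an unadjusted p under 0.05. For Co, 0 of 7 were called beside 3.37% of genes, and for Ni, 0 of 7 beside 0 of 13253 genes, with 0 members at an unadjusted p under 0.05 for either metal.

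**Figure D3:**
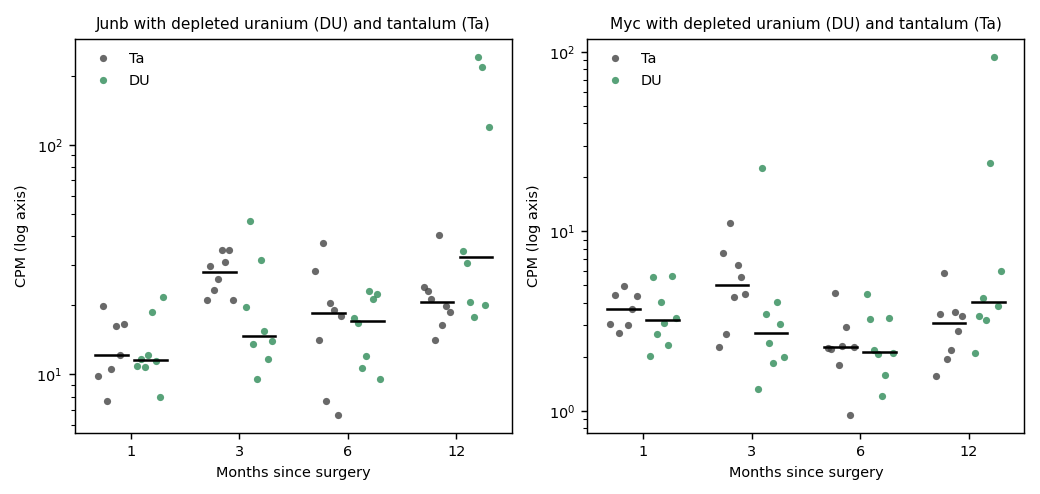
Junb and Myc in muscle with depleted uranium (DU, green) and with tantalum (Ta, grey), in CPM on a log axis by months since surgery; each point is a library and each bar a group median. At 12 months 3 DU libraries of Junb, at 120 to 240 CPM, and 2 of Myc, at 24.1 and 93.1 CPM, stand above the rest, which lie at or near the range of Ta.

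Libraries of the same group differed widely in these genes. The SD of log2 CPM within groups was 1.13 for Atf3, 1.11 for Fos, 0.90 for Nr4a1, 0.88 for Egr1, 0.87 for Myc, 0.82 for Junb and 0.45 for Jun. Genes of like level (within 0.5 log2 CPM of the member) had a median SD between 0.36 and 0.53. Among them Fos stood at the percentile 98.9, Atf3 at 98.8, Egr1 at 97.0, Junb at 96.0, Nr4a1 at 92.4, Myc at 89.7 and Jun at 57.7. Thus 5 of 7 members were above the percentile 90, and Jun was near the middle of genes like it. Without the libraries of low correlation Jun stood at the percentile 79.5.

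Part of the spread was shared between some of the members. For each library the deviation of log2 CPM from its group mean was taken, and the 21 pairs of members were correlated over 150 libraries, with permutation of libraries within groups. In 13 pairs the adjusted p was under 0.05. The share of all gene pairs that would pass was not computed. The highest correlation was that of Junb and Egr1 (Pearson's r = 0.69, Spearman's rho = 0.74), positive in 19 of 19 groups. Fos and Egr1 followed (r = 0.65, rho = 0.59), also positive in 19 of 19 groups, then Fos and Jun (r = 0.63, rho = 0.63) and Junb and Myc (r = 0.61, rho = 0.46), positive in 18 and 13 groups. Each of these r and rho had a permutation p of 1e-05, the smallest that 100000 resamples can give, and an adjusted p of 2.33e-05. Without the 2 libraries farthest from the median, the r of the 4 pairs was 0.67, 0.63, 0.59 and 0.55.

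Fos was also correlated with Atf3 (r = 0.56), Nr4a1 (r = 0.55) and Junb (r = 0.43), and Jun with Nr4a1 (r = 0.53), Atf3 (r = 0.46) and Egr1 (r = 0.37). Weaker correlations that passed were those of Egr1 with Nr4a1 (r = 0.28) and Myc (r = 0.24) and of Atf3 with Nr4a1 (r = 0.23). Over all 150 libraries the correlation of Fos and Myc did not pass (r = -0.01, adjusted p = 0.988), nor did those of Junb with Nr4a1 and with Jun, which depended on the libraries. Junb and Nr4a1 had an r of 0.04 (adjusted p = 0.854) over all libraries and of 0.43 (adjusted p = 0.00028) without the 10 of low correlation. They also passed within 6 months (r = 0.50, adjusted p = 0.0222) and in Ta alone (r = 0.52, adjusted p = 0.0465). Jun and Junb, both Jun proteins, had an r of -0.03 (adjusted p = 0.916) over all libraries, 0.49 within 6 months (adjusted p = 0.00712), 0.46 in Ta alone (adjusted p = 0.06) and -0.39 within 12 months (adjusted p = 0.0845).

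Over all libraries Fos and Egr1 each passed with 5 of the 6 other members, and Myc with Junb and Egr1; without the libraries of low correlation Egr1 and Myc no longer passed (r = 0.17, adjusted p = 0.0907). Within a time, the pairs with an adjusted p under 0.05 numbered 8 at 1 month, 8 at 3 months, 14 at 6 months and 6 at 12 months. In the 31 libraries of Ta they numbered 11. Of those at 3 months, Myc and Nr4a1 were negatively correlated (r = -0.62, adjusted p = 0.0154). Without the 2 libraries farthest from the median, their r was -0.33. The same pair passed with the opposite sign at 6 months (r = 0.44, adjusted p = 0.0247). Of the pairs that passed over all libraries, those of lowest r, Egr1 with Myc and Atf3 with Nr4a1, passed in none of these subsets.

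The 12140 genes with a mean of 1 CPM or more were ranked by the r of their deviations with those of a member. Egr1 was the 6th closest to Junb, Junb the 7th closest to Egr1, and Fos the 8th closest to Jun. Egr1 and Jun were the 11th and 13th closest to Fos. For other pairs that passed, the rank depended on the direction. Myc was 16th closest to Junb, and Junb 240th closest to Myc. Atf3 was 20th and Nr4a1 21st closest to Fos, while Fos was 219th closest to Atf3 and 1309th closest to Nr4a1. Nr4a1 was 112th closest to Jun, and Jun 1505th closest to Nr4a1. Nr4a1 was 1663rd closest to Atf3, and Atf3 4273rd closest to Nr4a1. Egr1 was 3517th closest to Myc and 3748th closest to Nr4a1, while Myc was 1653rd and Nr4a1 1060th closest to Egr1. The closest gene to Fos was ENSRNOG00000046667 (r = 0.83), to Egr1 ENSRNOG00000054344 (r = 0.80), to Nr4a1 ENSRNOG00000020812 (r = 0.85) and to Atf3 ENSRNOG00000001557 (r = 0.79), none of which has a name in the tables used here. For Junb, Jun and Myc they were ENSRNOG00000031163 (r = 0.77), ENSRNOG00000027938 (r = 0.68) and ENSRNOG00000031312 (r = 0.81). These are descriptions over 150 libraries with group means removed.

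**Figure D4:**
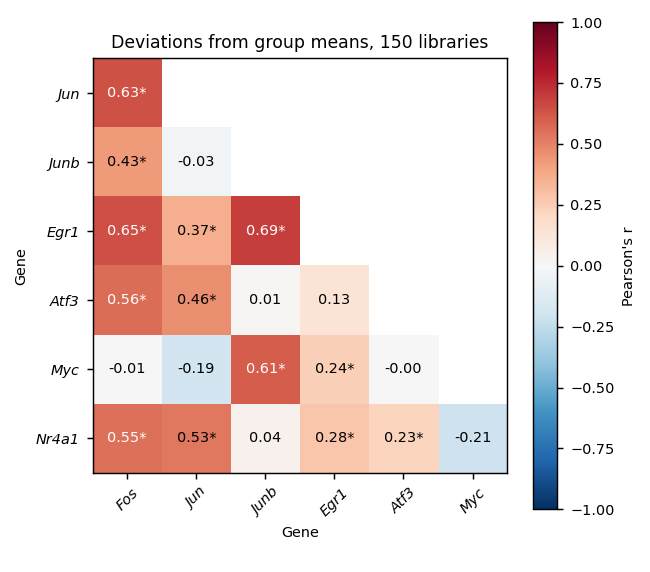
Pearson's r between pairs of genes, computed over 150 libraries from deviations of log2 CPM from the group mean; an asterisk marks an adjusted permutation p under 0.05. The highest value is 0.69 for Junb and Egr1, and Jun and Junb are at -0.03.

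Some members moved with the make-up of the library. Of 28 relations between members and 4 library measures, 8 had an adjusted permutation p under 0.05, and all 8 belonged to Junb, Egr1 or Myc. The share of all genes related to these measures was not computed, so the count does not set the members apart from other genes. With the TMM factor, which scales a library for its composition, r was 0.53 for Myc (rho = 0.61), 0.40 for Junb (rho = 0.41) and 0.33 for Egr1 (rho = 0.35), with adjusted p of 9.33e-05, 9.33e-05 and 0.0014. With the share of counts in the 10 most abundant genes, r was -0.56 for Myc and -0.36 for Junb. With the number of genes at 1 CPM or more, it was 0.38 for Myc, 0.33 for Junb and 0.25 for Egr1. For Fos, Jun, Atf3 and Nr4a1 no relation passed, the lowest adjusted p being 0.104. Without the libraries of low correlation Nr4a1 passed with the TMM factor (r = 0.28, adjusted p = 0.0385) and with the share of the 10 most abundant genes (r = -0.25, adjusted p = 0.049), and Fos with the number of genes (r = 0.20, adjusted p = 0.049), while Junb with the number of genes did not (r = 0.20, adjusted p = 0.0792). No member was related to the total count, with r between -0.14 and -0.01. The part of these measures in the comparisons above was not tested.

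The libraries of a group carry a replicate number from 1 to 8, and the labels used here do not say what it marks. After the values had been seen, the number was tested beside the 19 group means with an edgeR quasi-likelihood F test. It was called for 3 of 7 members, beside 1.70% of all genes: Egr1 (adjusted p = 8.11e-11, rank 9 of 14762 genes by p), Fos (adjusted p = 1.14e-08, rank 20) and Junb (adjusted p = 0.00318, rank 112). The libraries numbered 5 were high: their mean deviation from the group mean was 1.20 for Fos, 1.07 for Egr1 and 0.71 for Junb on the log2 scale. Those numbered 1 followed for Fos and Egr1, at 0.70 and 0.52. Libraries numbered 8 were at -0.60 for Fos and -0.64 for Egr1, and those numbered 4 at -0.59 and -0.44.

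The libraries numbered 5 lay above the group median of Fos in 17 of 19 groups and of Egr1 in 17 of 19, and held the highest Fos value in 11 groups and the highest Egr1 value in 11. Atf3, whose spread was as wide as that of Fos, was not called (adjusted p = 0.695), and neither was Myc (adjusted p = 0.603), Nr4a1 (adjusted p = 0.217, and called without the libraries of low correlation, adjusted p = 0.0181, beside 2.82% of genes) or Jun (adjusted p = 0.159). Within the libraries of 6 months alone Fos (adjusted p = 0.00204) and Egr1 (adjusted p = 0.00318) were called, beside 0.248% of genes. Within 3 months only Atf3 was (adjusted p = 0.0442), beside 0.226%, and within 1 month or 12 months no member and no gene. With the means of each number removed as well, the r of Fos and Egr1 was 0.45 in place of 0.65, that of Fos and Atf3 0.68 in place of 0.56, and that of Junb and Egr1 0.63 in place of 0.69. Each number occurs once in each group, apart from the 2 groups of 7.

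**Figure D5:**
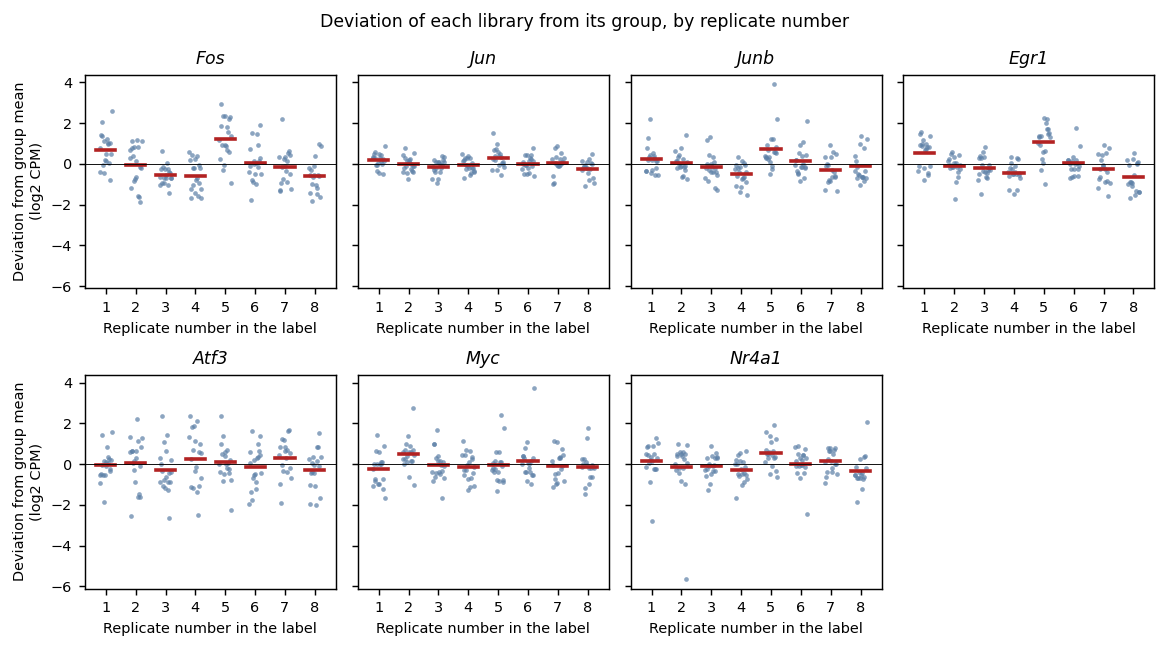
Deviation of each library from its group mean, in log2 CPM, by the replicate number of its label, for each gene; each point is a library and each red bar the mean over groups. The libraries numbered 5 average 1.20 above their group for Fos and 1.07 for Egr1, and the bars of Atf3 lie between -0.28 and 0.31.

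A few libraries show that the members do not move as a unit. Replicate 5 of P at 12 months held the highest value of its group for Fos (164 CPM, others 11.8 to 68.5), Junb (410, others 11.8 to 28.5), Egr1 (98.2, others 11.9 to 25.9), Myc (22.04, others 1.20 to 5.17) and Nr4a1 (890, others 120 to 381). Its Jun, at 112 CPM, was the lowest of the group, the others being at 126 to 234 CPM, and its Atf3 was at 28.6 CPM among others from 5.33 to 106. Replicate 5 of Ta at 6 months had another set of high members: Fos (174 CPM, others 7.01 to 59.8), Egr1 (35.0, others 5.52 to 26.4), Jun (433, others 92.6 to 208), Atf3 (155, others 5.05 to 54.0) and Nr4a1 (332, others 34.1 to 199) were all the highest of the group, while Junb (20.4 CPM) and Myc (2.29 CPM) were amid theirs.

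In replicate 2 of DU at 3 months, the library of lowest correlation, Nr4a1 was at 1.32 CPM and in the other libraries of the group at 94.0 to 172 CPM. Its Fos was also the lowest of its group and of all 150 libraries, at 3.87 CPM, and so was its Jun in the group, at 111 CPM. Myc and Junb were the highest of the group, at 22.7 CPM (others 1.33 to 4.05) and 46.6 CPM (others 9.57 to 31.6). Replicate 6 of DU at 12 months shared part of this division. Its Nr4a1 was the lowest at 25.4 CPM (others 83.9 to 590) and its Myc the highest at 93.1 CPM (others 2.11 to 24.1). Its Junb, at 219 CPM, was high but not the highest (others 17.7 to 240). Fos (19.6 CPM, others 11.5 to 167) and Jun (95.9 CPM, others 75.9 to 264) were not the lowest. Both libraries are among those of low correlation, and what sets them apart was not tested.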

How the data were processed

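The values were read counts per gene, as deposited, for 150 RNA-seq libraries of total RNA, made with a stranded total RNA kit and sequenced as 2 x 100-base reads, per the labels' protocols. The tools listed in the submitters' processing notes are HISAT2 2.0.5 for alignment and featureCounts 1.5.0-p3 for counting, and the build is Rnor_6.0. Which annotation was counted, and whether strand was used, is not given in the sources used here. Every column of the count table was matched to a labelled sample.

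Counts were analysed in R 4.3.3 with edgeR 4.0.16 (filterByExpr, TMM, robust quasi-likelihood tests), separately for each metal and its Ta group of the same time, in 1 model per metal for the interaction, and in 1 model of 19 group means for time. Benjamini-Hochberg adjustment ran over all genes tested in a comparison, and the threshold was 0.05. Scripts were tested on simulated data. Levels are CPM with TMM scaling over 150 libraries, and log2 CPM used a prior count of 2. Correlations used SciPy 1.17.1 and 100000 permutations within groups, two-sided, with Benjamini-Hochberg adjustment over 21 pairs or 28 relations.

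Named were all 7 members, for each of them its largest fitted difference from Ta and every called contrast, and the gene most like it; other values and libraries were chosen after they were seen. The members and lists were chosen with earlier results of these data known. Alternatives were DESeq2 1.42.0, limma 3.58.1 (voom with sample weights), RLE size factors, no filter on low counts, a prior count of 0.5, all 150 libraries in 1 model, a block for replicate number, and leaving out libraries or metals.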

Additional observations from a re-analysis of the deposited data

Results flagged for a closer look

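In each of 133 sets of a gene and a group, the highest and lowest library were compared with the rest by Dixon's ratio, which chance exceeds in about 1 in 20 sets, or 6.65 of 133. It was exceeded in 9. The libraries far above their group were Fos at 162 CPM in replicate 5 of Co at 6 months (group median 29.4), Junb at 410 CPM in replicate 5 of P at 12 months (19.4), Egr1 at 98.2 CPM in the same library (18.8), Egr1 at 55.7 CPM in replicate 5 of DU at 1 month (13.8), Atf3 at 66.5 CPM in replicate 4 of Co at 1 month (16.1) and Myc at 22.7 CPM in replicate 2 of DU at 3 months (2.71). Those far below it were all of Nr4a1: 19.7 CPM in replicate 1 of Co at 6 months (group median 195), 65.8 CPM in replicate 8 of P at 3 months (152) and 1.32 CPM in replicate 2 of DU at 3 months (116). Of the 6 high values, 4 belong to libraries numbered 5.

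The difference between DU and Ta changed over the 4 times for Junb (edgeR interaction test, adjusted p = 0.00606) and for Myc (adjusted p = 0.0241). The call of Myc was lost with a block for replicate number.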

How the results depend on the processing

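Alternatives marked here as added were chosen after seeing the data: leaving out a metal or single libraries, the Ta libraries alone, and all tests of the replicate number. Of metal against Ta, 0 of 105 tests were called with edgeR, with RLE size factors, without the filter and with the replicate block; 5 were called with DESeq2, 6 with limma voom, 3 with all 150 libraries in 1 model, 1 without the libraries of low correlation, and 0 to 2 on leaving out 1 library. For Junb, P against Ta at 12 months, the log2 fold change reversed to -0.20 (DESeq2, adjusted p = 0.641) and -0.090 (limma voom, adjusted p = 0.912); the cause was not tested. The 2 interaction calls became 1 to 2 on leaving out 1 library. The 18 calls between times became 11 when averaged without DU, 16 to 19 on leaving out 1 library, and 13 to 19 under the other alternatives. The 4 calls among the 19 groups ranged from 3 to 5 on leaving out 1 library. The 13 correlated pairs became 8 within 1 month, 8 within 3 months (Myc and Nr4a1 negatively), 14 within 6 months and 6 within 12 months. The cause was not tested. The 3 calls for the replicate number became 5 with limma voom, 4 without the libraries of low correlation, 2 within 6 months, 0 within 1 month, 1 within 3 months and 0 within 12 months. Of the remaining values for single genes, pairs and relations, 913 kept direction and side of the threshold, 72 fell short of it, 18 newly passed it and 2 reversed.

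The replicate block left 1 of the 2 interaction calls (for Junb, DU by time, the adjusted p was 0.0195, and for Myc, DU by time, 0.0741) and gave 19 calls between times and 5 among groups. Same-numbered libraries of a metal and Ta were also compared by their correlation. In 0 of 15 comparisons was every pair's correlation over 0.1, and the median ran from -0.20 to 0.25. Of 115 libraries, 17 correlated best with their own number. The numbers therefore do not pair the samples by that criterion, which is a strict one. Across groups the number was still called for Egr1, Fos and Junb.

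Depth limits Myc most, with a median of 50.5 counts a library.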
